A study of Mus musculus with 8 samples.

Results

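The aminoacyl-tRNA synthetases are the enzymes that load each tRNA with its amino acid. The members were taken by symbol from a list of 36 genes, of which 20 encode cytosolic enzymes and 16 mitochondrial ones. A probe with 1 gene symbol was placed for 26 of the 36, with 28 probes, among 15095 named genes on the array. The measured members comprised 18 of 20 cytosolic genes, with no placed probe for Dars and Mars, and 8 of 16 mitochondrial genes, with none for Aars2, Cars2, Iars2, Lars2, Mars2, Nars2, Pars2 and Rars2. Gene names rest on a print order recovered from the spots, and under the deposited order of names the values below belong to other genes.

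The cells were CTL-EN, a mouse T cell line that expressed the human beta common chain of the GM-CSF receptor, in its wild-type form or carrying glycine in place of a serine (Ser585Gly). Both populations had been deprived of factor for 12 h in RPMI with 0.5% serum, which was the 0 h state, and then received human GM-CSF (50 ng/mL) over 12 h. RNA was compared on 8 spotted 2-colour oligonucleotide arrays that form a square: Ser585Gly against wild type at 0 h and at 12 h, and 12 h against 0 h in wild type and in Ser585Gly. Each comparison was hybridised on 2 arrays, with the Ser585Gly or 12 h RNA in Cy5 on one (Cy5 orientation) and in Cy3 on the other (Cy3 orientation). The labels name no separate cultures for the arrays of a pair and do not state whether each population was a clone, so the p-values measure the spread between hybridisations and not between cultures. No array held cells kept for the same 12 h without GM-CSF, so that GM-CSF and time in culture cannot be told apart. In such bulk RNA, fewer cells of a type and less RNA per cell cannot be told apart either. The introduced human chain itself had no probe analysed here.

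Each synthetase recognises 1 amino acid and the tRNAs that carry it, and joins them at the cost of ATP before the charged tRNA goes to the ribosome. The enzymes fall into class I and class II by the fold of the catalytic domain. In animal cells several cytosolic enzymes sit together in the multisynthetase complex on scaffold proteins, while mitochondria import a largely separate set encoded by other nuclear genes. Many cytosolic synthetase genes are known targets of ATF4, a transcription factor whose translation rises when uncharged tRNA or endoplasmic reticulum stress activates eIF2-alpha kinases, and which can also be raised by growth factor signals. Activated T cells are known to enlarge their capacity for amino acid uptake and protein synthesis.

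ATF4 binds with C/EBP partners to the C/EBP-ATF response element (CARE), searched here as TGATGNAA, and MYC, which also acts on genes of protein synthesis, binds the E-box, searched as CACGTG. Both motifs were searched on both strands in the 250 bases upstream of each RefSeq start (GRCm38.p6), and 27 members had at least 1 of 28 entries there. The 3 members with a CARE match are shown first, because they include 2 of the genes whose RNA changed after GM-CSF and 1 whose RNA did not pass the test, and Yars is shown as a gene that rose without a match. Capitals mark CARE and E-box matches, each sequence runs 5′ to 3′ in the direction of the gene, and a CARE on the opposite strand therefore appears as its reverse complement. The windows are chr8:111033592-111033841 on the plus strand for Aars, chr15:11399659-11399908 on the minus strand for Tars, chr6:55037751-55038000 on the plus strand for Gars and chr4:129189653-129189902 on the plus strand for Yars.
Aars: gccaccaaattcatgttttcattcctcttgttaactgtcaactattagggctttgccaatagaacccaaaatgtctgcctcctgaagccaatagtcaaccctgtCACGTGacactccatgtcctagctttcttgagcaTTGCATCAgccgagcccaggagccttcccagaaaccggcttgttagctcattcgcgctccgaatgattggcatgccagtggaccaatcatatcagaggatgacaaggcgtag
Tars: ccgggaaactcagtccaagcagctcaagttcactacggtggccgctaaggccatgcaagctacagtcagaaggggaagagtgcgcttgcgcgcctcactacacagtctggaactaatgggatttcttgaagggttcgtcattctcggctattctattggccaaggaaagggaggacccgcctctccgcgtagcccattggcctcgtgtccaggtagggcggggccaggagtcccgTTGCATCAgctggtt
Gars: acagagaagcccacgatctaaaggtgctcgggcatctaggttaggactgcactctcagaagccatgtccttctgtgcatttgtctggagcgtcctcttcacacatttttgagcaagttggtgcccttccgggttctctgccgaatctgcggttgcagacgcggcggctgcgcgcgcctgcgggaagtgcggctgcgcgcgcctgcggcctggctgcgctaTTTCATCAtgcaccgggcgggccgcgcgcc
Yars: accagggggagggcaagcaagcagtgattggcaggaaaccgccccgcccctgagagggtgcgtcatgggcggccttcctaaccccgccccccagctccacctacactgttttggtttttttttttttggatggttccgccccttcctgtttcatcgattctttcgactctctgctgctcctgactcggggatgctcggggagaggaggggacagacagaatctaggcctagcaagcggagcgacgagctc
The Aars CARE lay 112 to 105 bases upstream of the start and its E-box 146 to 141 bases upstream. The Tars CARE lay 15 to 8 bases upstream and that of Gars 30 to 23 bases upstream. No CARE match overlapped an E-box match in these windows. An E-box without a CARE stood 69 to 64 bases upstream of Iars and 39 to 34 bases upstream of Farsb. Across the members 3 of 28 promoters (10.7%) held a CARE and 3 of 28 (10.7%) an E-box, against 3.45% and 6.02% of all 32851 promoters of the same length. The member shares include genes without a placed probe, such as Dars and Mars. All matches lay in cytosolic members, and no mitochondrial member with an entry held either motif. Among 22 promoters of the amino acid response list described below, 4 (18.2%) held a CARE, those of Atf3, Chac1, Slc7a11 and Asns, and none an E-box. A match describes these letters only and is not a measured binding site. Cars, Hars, Lars, Nars, Rars, Vars, Wars, Pars2 and Hars2 had no promoter entry and were not searched for either motif. Lars and Nars, with the highest ratios of 12 h over 0 h in the family, are thus absent from these shares.

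**Figure D1:**
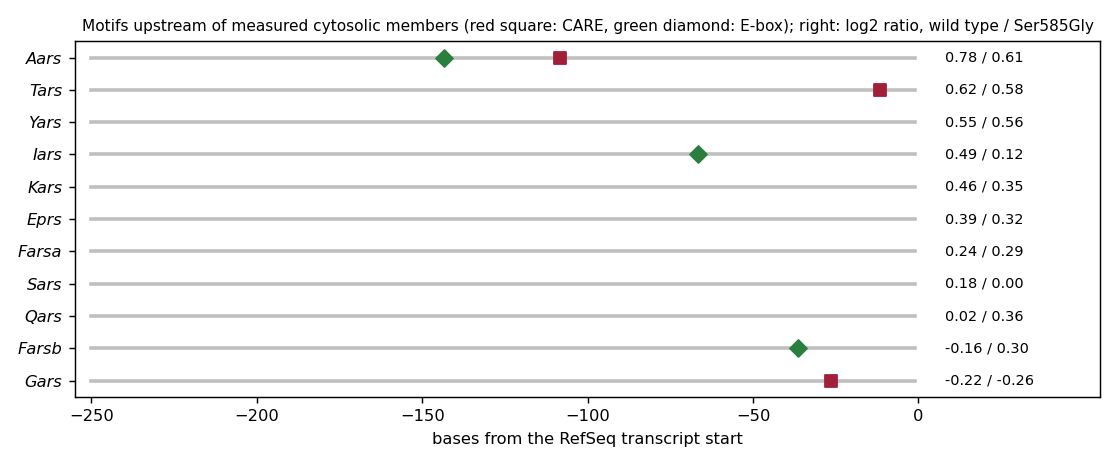
Positions of CARE matches (red squares) and E-box matches (green diamonds) in bases from the RefSeq start, for the measured cytosolic members with a promoter entry, ordered by the log2 ratio of 12 h over 0 h in wild type, which is printed at the right with that in Ser585Gly. Aars (0.78 and 0.61) and Tars (0.62 and 0.58) with a CARE stand at the top, and Gars with a CARE (-0.22 and -0.26) at the bottom.

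All values that follow are log2 ratios, positive where the 12 h or Ser585Gly RNA was higher, with the standard error from limma over 8 arrays. Adjusted p-values are those of limma with Benjamini-Hochberg adjustment over 21776 probes, and a gene was called at an adjusted p under 0.05, with its brightest probe standing for it. Median foreground intensity per array lay between 631 and 946 for Cy5 and between 795 and 1100 for Cy3. Across probes, the turned ratios of a dye-swap pair correlated at 0.515 in the wild-type and 0.509 in the Ser585Gly time comparison, but at only 0.124 between the populations at 0 h and 0.219 at 12 h. In both channels of all arrays 25 of the 26 members were brighter than the 95th percentile of empty wells, and Ears2, the mitochondrial glutamyl enzyme, was so in 14 of 16 channels. All 9 measured T cell markers were above that level in every channel, at a median brightness percentile of 95.5. So were 4 of 5 myeloid, 2 of 4 B cell, 2 of 2 erythroid, 3 of 4 mast cell and 4 of 5 fibroblast markers, at median percentiles of 53.9, 29.4, 56.5, 44.9 and 47.3. Among the time comparisons limma called 2 T cell markers lower in each population, Cd3e and Cd3g, and 1 erythroid marker, Hba-a1, and no other marker in either direction. These marker counts moved with single arrays. When the Cy5 array of the mutation at 0 h was left out, Cd3d was called lower and Thy1 higher in both populations and Itgam lower in Ser585Gly. With that of the mutation at 12 h left out, Thy1 was called higher in wild type and Itgam lower in Ser585Gly. Without the Cy3 array of the same pair Mcpt1 was called higher in Ser585Gly, from a probe near the floor. That probe lay at brightness percentile 0.542 and above the level of the empty wells in 1 of 16 channels. Cd3e in wild type was lost without the Cy5 array (0.0576) and Cd3g without the Cy3 array (0.0719) of that pair, and in Ser585Gly both were lost without the Cy5 array of its pair (0.0734 and 0.0646). The wild-type call of Hba-a1 was lost without any 1 of 6 arrays (0.0549 to 0.183) and its Ser585Gly call without either array of that pair (0.209 and 0.0916). The part of cell makeup in the results was not tested.

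After 12 h with GM-CSF, the wild-type cells had more RNA of 8 of the 26 measured synthetases and less of none, as called by limma, while 5.6% of all genes were called higher and 4.58% lower. Of these 8, 7 were among the 18 cytosolic members (Lars, Nars, Aars, Tars, Yars, Iars and Kars) and 1, Hars2, was among the 8 mitochondrial ones. The median log2 ratio was 0.35 over the cytosolic members and -0.03 over the mitochondrial members, against -0.01 over all genes. In Ser585Gly cells 7 members were called higher and 1 lower, against 6.35% and 5.25% of all genes. The 6 cytosolic genes were Lars, Nars, Aars, Tars, Yars and Wars, the mitochondrial pair was Hars2, higher, and Wars2, lower, and the medians were 0.31 and 0.07 against 0.00 for all genes. The number of members called moved with single arrays, and so did that of all genes, given in brackets. With all arrays the latter was 1537 in wild type and 1750 in Ser585Gly. In wild type 5 members were called without the Cy5 array of the mutation at 12 h (1080). The number was 4 without the Cy5 (449) and 3 without the Cy3 array (322) of time in wild type. Without the Cy5 array of time in Ser585Gly it was 5 (786). In Ser585Gly 13 members were called without the Cy5 array of the mutation at 0 h (2629). There Eprs, Farsa, Kars, Qars and Tars2 were called higher as well. The number was 2 without the Cy5 (230) and 3 without the Cy3 array (729) of time in Ser585Gly. Median centring in place of loess raised the share of higher genes among all calls from 55% to 61.6% in wild type and from 54.7% to 66.4% in Ser585Gly.

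The direction could be read on each array without a test. In wild type 15 of 18 cytosolic members were above 0 on both arrays and 2 were below 0 on both, while 33.1% and 34.2% of all genes did so. In Ser585Gly the counts were 14 and 1, against 31.6% and 32.7%. Of the 8 mitochondrial members 2 were above and 3 below 0 on both arrays in wild type, and 4 above and 2 below in Ser585Gly. In the fit the cytosolic members ran from -0.22 to 1.03 in wild type, with 16 above 0, and from -0.26 to 1.04 in Ser585Gly, with 16 above 0. The cytosolic median stayed between 0.32 and 0.41 in wild type and between 0.30 and 0.41 in Ser585Gly under every other normalisation and with any array left out.

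**Figure D2:**
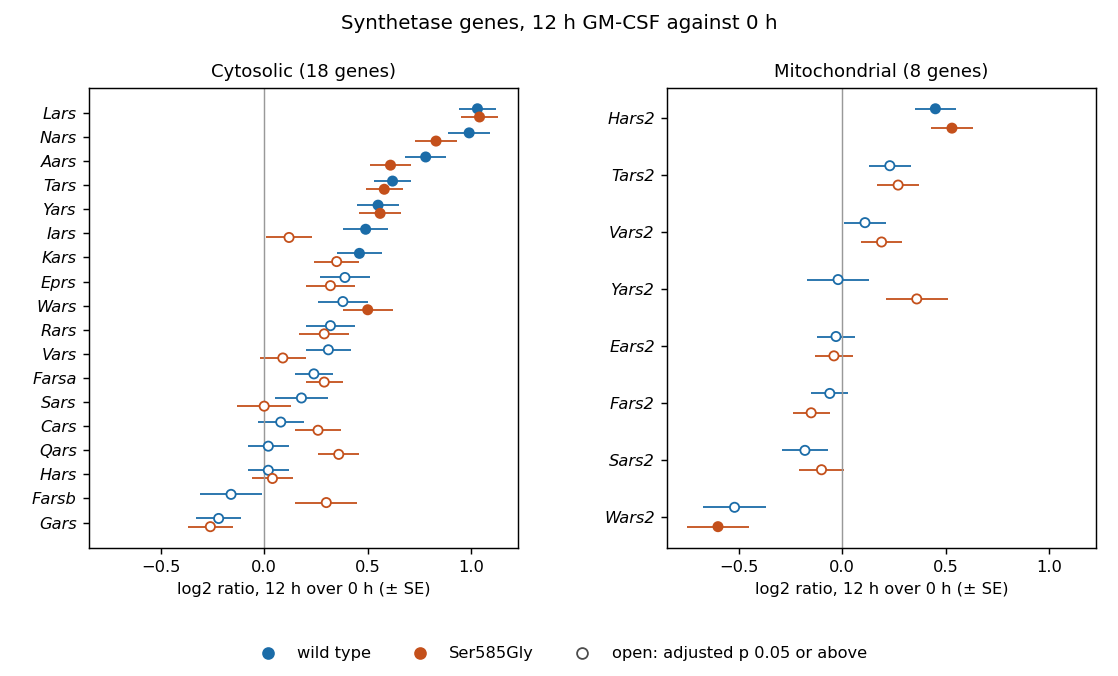
Log2 ratio of 12 h over 0 h with its standard error for the 18 cytosolic and 8 mitochondrial members, in wild type (blue) and Ser585Gly (orange), ordered by the wild-type value; filled points had an adjusted p under 0.05. The cytosolic points lie mostly to the right of 0, from Lars at 1.03 in wild type down to Gars at -0.22, and the mitochondrial points lie on both sides, from Hars2 at 0.45 to Wars2 at -0.52.

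Lars, the leucyl enzyme of the multisynthetase complex, whose protein is also described as a leucine sensor, had the highest ratio of the members. In wild type its 2 arrays gave 1.01 in the Cy5 and 1.08 in the Cy3 orientation, and in Ser585Gly 0.98 and 1.06. The 4 arrays thus lay close together and did not separate the populations. The fit gave 1.03 ± 0.09 in wild type, a 2.05-fold rise (limma, adjusted p = 0.000501), and 1.04 ± 0.09 in Ser585Gly (adjusted p = 0.000549). The call held in both populations with any 1 array left out.

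Nars, the asparaginyl enzyme, gave 1.03 and 0.86 on the wild-type arrays and 0.84 and 0.89 on the Ser585Gly arrays, Cy5 orientation first. All 4 values were far above 0. The fit gave 0.99 ± 0.10 in wild type, a 1.98-fold rise (limma, adjusted p = 0.00102), and 0.83 ± 0.10 in Ser585Gly, a 1.77-fold rise (adjusted p = 0.00226). This call too held in both populations without any 1 array.

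Aars, the alanyl enzyme with the CARE and E-box shown above, gave 0.87 and 0.55 in wild type and 0.67 on both arrays in Ser585Gly. The wild-type pair thus spread on both sides of the Ser585Gly values. The fit gave 0.78 ± 0.10 in wild type, a 1.71-fold rise (limma, adjusted p = 0.00315), and 0.61 ± 0.10 in Ser585Gly, a 1.52-fold rise (adjusted p = 0.00826). In Ser585Gly the adjusted p was 0.104 without its Cy5 array and 0.082 without its Cy3 array.

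Tars, the threonyl enzyme with a CARE next to its start, gave 0.54 and 0.62 in wild type and 0.67 and 0.56 in Ser585Gly, so the pairs overlapped. The fit gave 0.62 ± 0.09, a 1.53-fold rise (limma, adjusted p = 0.00571), and 0.58 ± 0.09, a 1.5-fold rise (adjusted p = 0.00647). The wild-type call was lost without the Cy3 wild-type array (adjusted p = 0.0863), and the Ser585Gly call without the Cy5 (adjusted p = 0.121) or the Cy3 array (adjusted p = 0.0503) of that pair.

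Yars, the tyrosyl enzyme, whose fragments are known as secreted cytokines, gave 0.56 and 0.47 in wild type and 0.50 and 0.70 in Ser585Gly. The ranges overlapped. The fit gave 0.55 ± 0.10 in wild type, a 1.46-fold rise (limma, adjusted p = 0.0125), and 0.56 ± 0.10 in Ser585Gly, a 1.48-fold rise (adjusted p = 0.0097). Each call rested on its own pair, with an adjusted p of 0.0977 or 0.0989 in wild type and of 0.097 or 0.0935 in Ser585Gly when the Cy5 or the Cy3 array of that pair was left out.

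Hars2, the mitochondrial histidyl enzyme, was the 1 mitochondrial member called higher. Its arrays gave 0.43 and 0.42 in wild type and 0.56 and 0.55 in Ser585Gly, the latter pair slightly above the former. The fit gave 0.45 ± 0.10, a 1.37-fold rise (limma, adjusted p = 0.025), and 0.53 ± 0.10, a 1.44-fold rise (adjusted p = 0.0123). Hars, the cytosolic histidyl enzyme and the neighbouring gene in the RefSeq table, had 0.02 ± 0.10 (adjusted p = 0.928) and 0.04 ± 0.10 (adjusted p = 0.876). The wild-type call of Hars2 was lost without any 1 of 5 arrays, with an adjusted p of 0.0501 and 0.0537 without the Cy5 and Cy3 arrays of the mutation at 12 h, 0.129 and 0.176 without those of time in wild type, and 0.076 without the Cy5 array of time in Ser585Gly. The Ser585Gly call was lost without the Cy5 (0.153) or Cy3 (0.0918) array of its own pair.

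Wars, the cytosolic tryptophanyl enzyme, which interferon is known to induce, gave 0.38 and 0.46 in wild type and 0.26 and 0.64 in Ser585Gly. The Ser585Gly pair spanned the wild-type pair. The fit gave 0.38 ± 0.12 in wild type (limma, adjusted p = 0.0844; 0.0161 without the Cy5 array of the mutation at 0 h) and 0.50 ± 0.12 in Ser585Gly, a 1.41-fold rise (adjusted p = 0.0315). This call was lost without either array of the mutation at 12 h (0.066 and 0.0699, Cy5 first), of time in wild type (0.0615 and 0.0584) or of time in Ser585Gly (0.199 and 0.13). Wars2, its mitochondrial counterpart, gave -0.67 and -0.57 in wild type and -0.82 and -0.18 in Ser585Gly with its brighter probe, all below 0. The fit gave -0.52 ± 0.15 in wild type (adjusted p = 0.075; 0.0132 without the Cy5 array of the mutation at 0 h and 0.0212 without the Cy3 array of time in Ser585Gly) and -0.60 ± 0.15 in Ser585Gly, 0.659 times the 0 h level (adjusted p = 0.0429). The other Wars2 probe, at brightness percentile 87.0 against 97.3, had 0.15 ± 0.10 (adjusted p = 0.449) and 0.08 ± 0.10 (adjusted p = 0.725), so the probes of this gene disagreed in direction. Under median centring the Wars2 call was lost (adjusted p = 0.163). It was also lost without the Cy3 array of the mutation at 0 h (0.0634), the Cy5 or Cy3 array of the mutation at 12 h (0.0886 and 0.0921) or of time in wild type (0.0862 and 0.0983), and the Cy5 array of time in Ser585Gly (0.356).

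Iars, the isoleucyl enzyme of the complex, gave 0.57 and 0.38 in wild type and 0.35 and -0.09 in Ser585Gly. The pairs did not overlap, and the Ser585Gly pair lay on both sides of 0. The fit gave 0.49 ± 0.11 in wild type, a 1.41-fold rise (limma, adjusted p = 0.0285), and 0.12 ± 0.11 in Ser585Gly (adjusted p = 0.595). The wild-type call was lost without the Cy5 array of the mutation at 12 h (0.0529), the Cy5 (0.12) or Cy3 (0.22) array of time in wild type, or the Cy5 array of time in Ser585Gly (0.0839). Kars, the lysyl enzyme, which serves both cytosol and mitochondria, gave 0.47 and 0.30 in wild type and 0.46 and 0.38 in Ser585Gly. The fit gave 0.46 ± 0.11 in wild type, a 1.37-fold rise (adjusted p = 0.0371), and 0.35 ± 0.11 in Ser585Gly (adjusted p = 0.0875). This wild-type call held only without the Cy5 array of the mutation at 0 h. It was lost without the Cy3 array of the mutation at 0 h (0.0709), the Cy5 and Cy3 arrays of the mutation at 12 h (0.0746 and 0.0872), of time in wild type (0.103 and 0.22) and of time in Ser585Gly (0.0916 and 0.0623), and under median centring (0.0669).

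**Figure D3:**
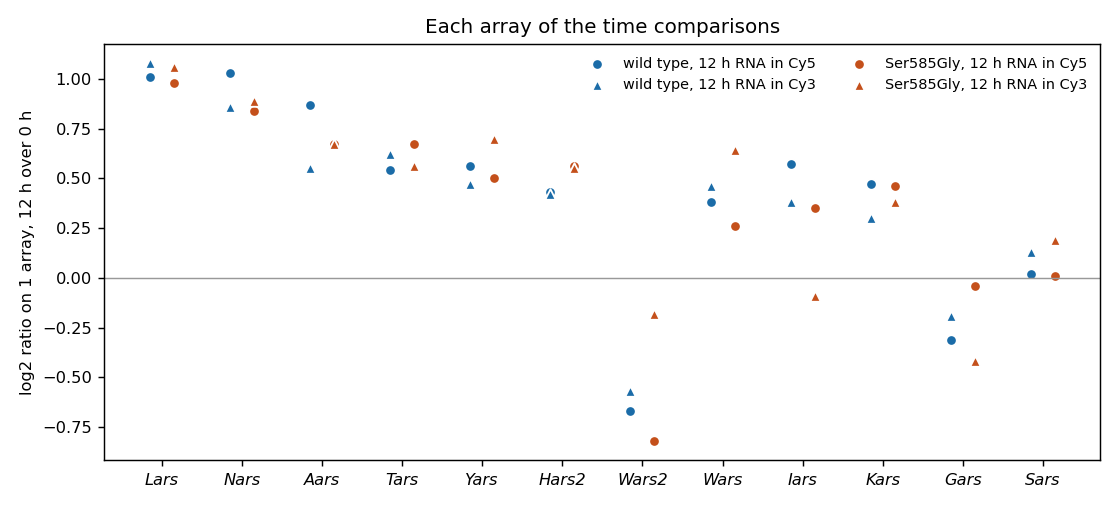
Log2 ratio of 12 h over 0 h on each of the 4 arrays of the time comparisons for 12 members; circles have the 12 h RNA in Cy5 and triangles in Cy3, in wild type (blue) and Ser585Gly (orange). Lars (0.98 to 1.08) and Nars (0.84 to 1.03) are high on all 4 arrays, Wars2 is below 0 on all 4 with its brighter probe, and Iars ranges from -0.09 to 0.57.

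When dye-swap pairs were averaged before the fit, 4 members were called in wild type and 5 in Ser585Gly. Of all 15095 genes 785 and 1050 were then called, against 1537 and 1750 without averaging. Averaging left fewer residual degrees of freedom than the fit to single arrays. The part of this in the lost calls was not tested. The calls lost were Iars (adjusted p = 0.0673), Kars (0.0966), Yars (0.0543) and Hars2 (0.0836) in wild type, and Wars (0.0655), Hars2 (0.0527) and Wars2 (0.0562) in Ser585Gly, all by limma. The fit over the square lets the arrays of each population inform the other. The populations were therefore also set side by side with each log2 ratio estimated from its own 2 arrays. The dye term and the spread behind the p-values were still shared by all 8 arrays, so the calls in the populations were not independent. In that limma fit Lars, Nars, Aars and Tars were called higher in wild type, against 2.42% of all genes. The same 4 plus Yars and Hars2 were called higher in Ser585Gly, against 3.50%. All 4 were thus called in both, against 1.78% of all genes. The values were 1.05 and 1.02 for Lars, 0.95 and 0.87 for Nars, 0.71 and 0.67 for Aars, and 0.58 and 0.62 for Tars, wild type first, with adjusted p from 0.00379 to 0.0381.

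The members that were not called covered the rest of the family. Eprs, which joins the glutamyl and prolyl enzymes in 1 protein of the complex, gave 0.33 and 0.35 in wild type and 0.36 and 0.39 in Ser585Gly with its brighter probe, close to each other on all 4 arrays. The fit gave 0.39 ± 0.12 (limma, adjusted p = 0.0746) and 0.32 ± 0.12 (adjusted p = 0.126). Its dimmer probe, at percentile 54.6 against 94.4, passed the test with 0.45 ± 0.10 (adjusted p = 0.0277) and 0.58 ± 0.10 (adjusted p = 0.00862), so that the probes shared the direction and lay on different sides of the threshold. The wild-type call of the dimmer probe was lost without any 1 of 7 arrays (adjusted p from 0.0519 to 0.201), all but the Cy5 array of the mutation at 0 h, and its Ser585Gly call without the Cy5 (0.0913) or Cy3 (0.0783) array of that pair. Gars, the glycyl enzyme of cytosol and mitochondria, was below 0 on all 4 arrays, at -0.31 and -0.19 in wild type and -0.04 and -0.42 in Ser585Gly, with -0.22 ± 0.11 (adjusted p = 0.287) and -0.26 ± 0.11 (adjusted p = 0.192). Sars, the seryl enzyme, had 0.18 ± 0.13 and 0.00 ± 0.13, and Qars, the glutaminyl enzyme of the complex, 0.02 ± 0.10 and 0.36 ± 0.10 (adjusted p = 0.938 and 0.0593). Farsa and Farsb, the alpha and beta subunits of the phenylalanyl enzyme, had 0.24 and -0.16 in wild type and 0.29 and 0.30 in Ser585Gly. Cars, Rars and Vars, the cysteinyl, arginyl and valyl enzymes, ranged from 0.08 to 0.32 in wild type and from 0.09 to 0.29 in Ser585Gly. The remaining mitochondrial members, Ears2, Fars2, Sars2, Tars2, Vars2 and Yars2, ranged from -0.18 to 0.23 in wild type and from -0.15 to 0.36 in Ser585Gly, and none passed.

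The counts by structure and assembly are to be read against 5.6% of all genes called higher in wild type and 6.35% in Ser585Gly. Among class I cytosolic enzymes 3 of 9 rose in wild type and 3 of 9 in Ser585Gly, with medians of 0.38 and 0.32. Among class II enzymes the counts were 4 of 9 and 3 of 9, with medians of 0.24 and 0.30. Of 6 measured enzymes of the multisynthetase complex, 3 rose in wild type (Lars, Iars and Kars) and 1 in Ser585Gly (Lars), with medians of 0.42 and 0.34, and of the 12 cytosolic enzymes outside it 4 and 5 rose, with medians of 0.27 and 0.29. Of 11 measured synthetases described as ATF4 targets, 6 rose in each population, with medians of 0.49 and 0.50, against 1 and 0 of the 7 other cytosolic members, with medians of 0.24 and 0.29. The ATF4 list was compiled with results of these data known, and the difference between the lists was not tested. The counts of the other cytosolic members depended on the normalisation. With print-tip loess 3 of 7 rose in wild type and 4 of 7 in Ser585Gly, against 8 of 11 ATF4-linked members in each, while 1587 and 1744 of all 15095 genes were called higher. With the deposited ratios the other members gave the same 3 and 4, against 8 and 7 ATF4-linked members. Fewer genes of any kind were called when an array of the tested pair was left out: 153 and 426 of 15095 rose in Ser585Gly without its Cy5 or Cy3 array, and 256 and 196 in wild type without its own. Without the Cy5 or the Cy3 array of time in Ser585Gly the count of ATF4-linked genes was 2, that of class I was 1, that of class II was 1 and that of enzymes outside the complex was 1 in that population. Without the Cy3 array of time in wild type the wild-type counts were 3 for ATF4-linked genes, 1 for class I, 2 for class II, 1 for the complex and 2 outside it. Without the Cy5 array of that pair, 1 of class I and 1 of the complex rose in wild type, and the count of the complex was also 1 without the Cy5 array of the mutation at 12 h or of time in Ser585Gly. With the Cy5 array of the mutation at 0 h left out, 1385 of all genes rose in Ser585Gly, and the counts there were 5 for class I, 5 for class II, 4 for the complex and 3 for the other cytosolic members, and Kars, the 1 called gene of the last list in wild type, kept its call without that array alone.

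The populations were compared directly by the interaction, the response in Ser585Gly minus that in wild type. No member was called by limma, while 9 of all genes (0.0596%) were. At an unadjusted p under 0.05 there were 3 members, Farsb, Iars and Qars, a cut at which all genes were not counted. No member was called under any other setting or with any array left out. Farsb had an interaction of 0.45 (95% interval 0.06 to 0.85), Qars 0.34 (0.07 to 0.60) and Iars -0.37 (-0.67 to -0.08), with the lowest adjusted p of the family at 0.636. For the genes with the largest time responses the intervals were -0.23 to 0.24 around 0.00 for Lars, -0.42 to 0.10 around -0.16 for Nars, -0.44 to 0.10 around -0.17 for Aars and -0.28 to 0.21 around -0.03 for Tars. These intervals are not adjusted for the number of genes and do not mark the smallest difference that could be called. Farsb was not called although its interval lay above 0. Trib3, of the amino acid response list below, was not called at -1.03 ± 0.19 (limma, adjusted p = 0.292). The lack of calls therefore does not show that the populations responded alike.

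At 0 h 1 of 26 members was called higher in Ser585Gly and none lower, against 2.37% and 2.36% of all genes, with 8 members at an unadjusted p under 0.05. At 12 h none was called, against 1.08% higher and 0.881% lower, with 5 members at an unadjusted p under 0.05. The share of all genes at that unadjusted cut was not counted, so these numbers of members have no background beside them. The median of the cytosolic members was 0.08 at 0 h and 0.01 at 12 h. The populations also differed in a gene of the T cell marker list, Ptprc, which encodes CD45. Ptprc gave -1.50 and -1.49 on the arrays at 0 h and -1.89 and -1.75 on those at 12 h. The fit gave -1.59 ± 0.12 (limma, adjusted p = 0.000544) and -1.73 ± 0.12 (adjusted p = 0.000549) for it. It was the 1 marker of any list called at either time, and 1 fibroblast marker, Col1a1, was called lower at 0 h without the Cy5 array of the mutation at 12 h (0.0331). The part of this difference in the values of the synthetases was not tested. The called gene was Nars, which gave 0.68 and 0.34 on the arrays at 0 h and 0.35 and 0.19 on those at 12 h, all above 0. The fit gave 0.47 ± 0.10 at 0 h (limma, adjusted p = 0.0414) and 0.31 ± 0.10 at 12 h (adjusted p = 0.228). The 0 h call of Nars was lost when pairs were averaged (0.1), under median centring (0.0942) and without any 1 array other than the Cy3 array of time in Ser585Gly, when Wars2 was called higher too (adjusted p = 0.0397). Those values for Nars were 0.149 and 0.133 without the Cy5 and Cy3 arrays of the mutation at 0 h, 0.0704 and 0.0926 without those at 12 h, 0.0704 and 0.102 without those of time in wild type, and 0.121 without the Cy5 array of time in Ser585Gly.

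Eprs lay on the other side of 0. Its brighter probe gave -0.33 and -0.46 at 0 h and -0.80 and -0.32 at 12 h, and its dimmer probe -0.61 and -0.89 at 0 h and -0.63 and -0.58 at 12 h. All 8 readings were below 0. The fit gave -0.44 ± 0.12 (limma, adjusted p = 0.0733) and -0.51 ± 0.12 (adjusted p = 0.0837) for the brighter probe, and -0.75 ± 0.10 (adjusted p = 0.00788) and -0.61 ± 0.10 (adjusted p = 0.0226) for the dimmer. By the rule of the brightest probe the gene was not called. Without the Cy5 array of the mutation at 0 h the brighter probe was called lower at 12 h (adjusted p = 0.0341). The 0 h call of the dimmer probe was lost without the Cy3 array at 0 h (0.0854), and its 12 h call without any 1 of 6 arrays (0.0618 to 0.233), all but the Cy5 array of the mutation at 0 h and the Cy3 array of time in Ser585Gly. Lars also lay below 0 on all 4 arrays, at -0.40 and -0.27 at 0 h and -0.31 and -0.29 at 12 h, with -0.32 ± 0.09 at both times (adjusted p = 0.0868 and 0.156). Among the brightest probes of the members, that of Yars2, the mitochondrial tyrosyl enzyme, had the lowest value at 0 h. It was -0.61 ± 0.15 (limma, adjusted p = 0.0598), from arrays at -0.98 and -0.34. Qars had the highest value at 12 h, 0.49 ± 0.10 (adjusted p = 0.0566), from arrays at 0.64 and 0.34. Qars was called at 12 h without the Cy5 array of the mutation at 0 h (0.0439).

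**Figure D4:**
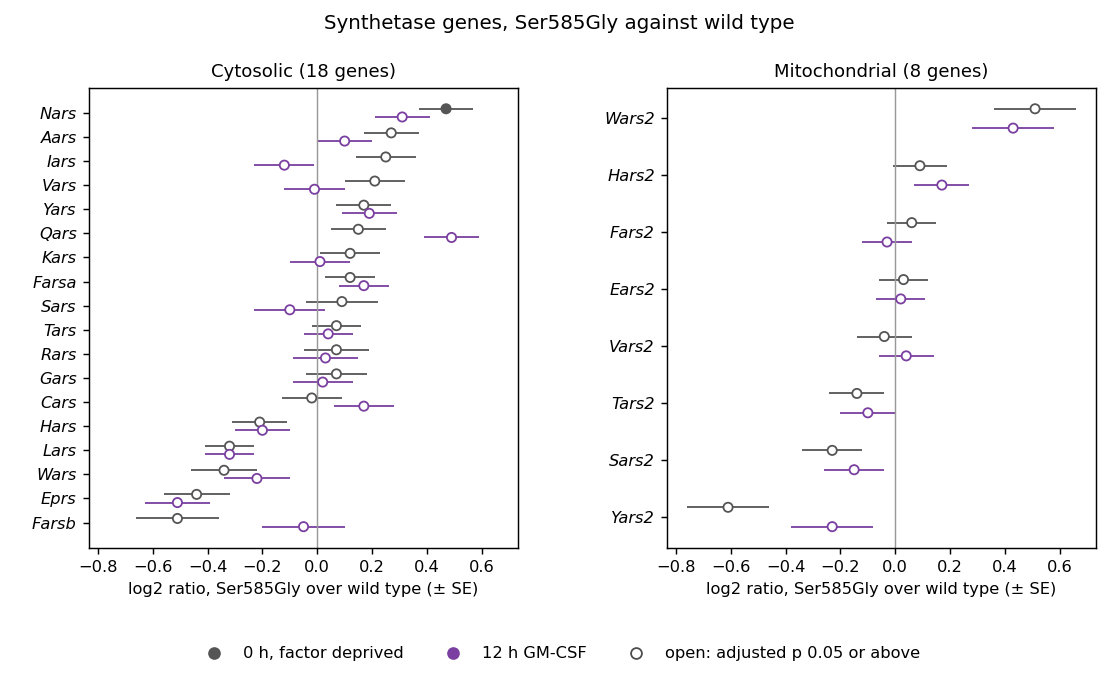
Log2 ratio of Ser585Gly over wild type with its standard error for the 26 members at 0 h (grey) and 12 h (purple), ordered by the 0 h value; filled points had an adjusted p under 0.05. Nars at 0 h (0.47) is the 1 filled point, and the cytosolic medians of 0.08 and 0.01 lie near 0.

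Other genes on the path of tRNA to the ribosome were read from lists drawn up together with the members. Of 11 measured genes that accompany or assist the synthetases, 1 rose in wild type, and 1 rose and 1 fell in Ser585Gly, against 5.6% of all genes called higher in wild type and 6.35% higher and 5.25% lower in Ser585Gly, so that the count was near the background. The gene that rose was Eef1e1, a scaffold protein of the multisynthetase complex, with 0.77 ± 0.13 (limma, adjusted p = 0.00958) and 1.07 ± 0.13 (adjusted p = 0.00227); its wild-type call was lost without the Cy5 (0.0695) or Cy3 (0.0783) array of time in wild type. Its fellow scaffold Aimp1 had -0.16 and -0.27 and did not pass. Pstk, a kinase on the route to selenocysteyl-tRNA, had -0.31 ± 0.10 (adjusted p = 0.112) and fell by 0.45 ± 0.10 in Ser585Gly (adjusted p = 0.0309), a call lost without any 1 of 5 arrays (0.0522 to 0.266), namely the Cy5 array of the mutation at 12 h and both arrays of each time comparison.

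Of 21 measured genes for the maturation, modification and export of tRNA, 4 rose in wild type and 7 in Ser585Gly, and none fell. Of all genes 5.6% were called higher in wild type and 6.35% in Ser585Gly, and 4.58% and 5.25% lower. Tsen15, a subunit of the tRNA splicing endonuclease, rose by 0.88 ± 0.10 and 0.84 ± 0.10 (limma, adjusted p = 0.00135 and 0.00184, wild type first). Xpot, the exportin that carries tRNA out of the nucleus, rose by 0.85 ± 0.10 and 0.79 ± 0.10 (adjusted p = 0.00197 and 0.00268), and Trnt1, which adds the CCA end that the synthetases charge, by 0.60 ± 0.10 and 0.56 ± 0.10 (adjusted p = 0.00954 and 0.0115). Rpp14, a ribonuclease P subunit and the remaining gene called in wild type, had 0.57 ± 0.13 and 0.56 ± 0.13 (adjusted p = 0.0266 and 0.0269), and each call was lost without any 1 of 5 arrays (0.0536 to 0.266 in wild type and 0.0557 to 0.277 in Ser585Gly). The Ser585Gly calls of Xpot (0.0685), Trnt1 (0.182) and Pop5 (0.0835) were lost without the Cy5 array of that pair, and the wild-type call of Trnt1 (0.134) without the Cy3 array of time in wild type. Pop5, a subunit of ribonuclease P, had 0.36 (adjusted p = 0.0734) and 0.66 (adjusted p = 0.00697), Elac2, which trims the 3′ end, 0.39 (0.115) and 0.58 (0.0299), and Nsun2, a tRNA cytosine methyltransferase, 0.14 (0.493) and 0.57 (0.0127). The Elac2 call was lost without any 1 of 6 arrays (0.0607 to 0.106), and that of Nsun2 without the Cy5 (0.194) or Cy3 (0.0679) array of time in Ser585Gly. Without the Cy5 array of the mutation at 0 h, Pop5 (0.0201) and Elac2 (0.0328) were called in wild type as well. The medians of the list were 0.14 and 0.34. The count in Ser585Gly was 1 without the Cy5 and 4 without the Cy3 array of its own pair, where 153 and 426 of 15095 genes rose. In wild type it was 8 without the Cy5 array of the mutation at 0 h, where 1279 of all genes rose. It was 2 without the Cy3 array of time in wild type, where 196 rose. Of 8 measured elongation factors 2 rose in each population, against 5.6% and 6.35% of all genes, and the medians were 0.11 and 0.01. These were Eif5a with 0.66 and 0.58 (limma, adjusted p = 0.00421 and 0.00659) and the mitochondrial Gfm1 with 0.50 and 0.56 (adjusted p = 0.0247 and 0.014). In Ser585Gly neither was called without the Cy5 or without the Cy3 array of that pair. In wild type the count of elongation factors was 0 without the Cy3 array of time in wild type, where 196 of all genes rose. It was 1 without any of 5 other arrays, where 256 to 595 rose.

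The amino acid response list holds ATF4, its partners and genes for amino acid synthesis and uptake. It also holds other genes, among them Eif2ak4, Ddit3, Trib3, Chac1, Ppp1r15a, Sesn2 and Mthfd2. Its medians were higher than those of the synthetases, a difference that was not tested. Of 20 genes, all with a placed probe, 14 rose in wild type and none fell. In Ser585Gly 11 rose and 1 fell, and the medians were 0.98 and 0.80, wild type first. Of all genes 5.6% were called higher and 4.58% lower in wild type, and 6.35% and 5.25% in Ser585Gly. Without the Cy5 array of time in Ser585Gly the count in that population was 7 higher and none lower, where 153 of 15095 genes rose. In wild type 12 rose without the Cy5 and 11 without the Cy3 array of its own pair, where 256 and 196 of all genes rose. Slc7a11 and Atf3 were dim, at brightness percentiles 4.49 and 14.8. They were above the level of the empty wells in 5 and 10 of 16 channels, so a change in them could be missed. Atf4 itself gave 1.11 and 1.06 in wild type and 1.23 and 1.08 in Ser585Gly, with 1.13 ± 0.12 and 1.10 ± 0.12 in the fit (limma, adjusted p = 0.00117 and 0.00139). Slc7a5 and Slc3a2, the chains of a transporter for large neutral amino acids such as leucine, rose by 1.98 and 1.64 in wild type and by 1.99 and 1.32 in Ser585Gly. Trib3, an ATF4 target that feeds back on it, rose by 2.0 ± 0.17 and 0.97 ± 0.17 (adjusted p = 0.000432 and 0.00868), and Chac1, which degrades glutathione, by 1.47 and 1.27. Psat1 and Psph, enzymes of serine synthesis, each rose by 1.38 in wild type, and by 0.97 and 1.34 in Ser585Gly. Trib3 in Ser585Gly was not called without the Cy5 array of that pair (0.139). Asns, which makes asparagine from aspartate and so acts before Nars, rose by 1.07 ± 0.12 and 0.86 ± 0.12 (adjusted p = 0.00143 and 0.00347), with 0.0661 in Ser585Gly without the Cy5 array of that pair. Atf4, Asns and the next gene were chosen for mention after their values were seen. The gene called lower in Ser585Gly was Ddit3, the stress factor CHOP, with 0.43 ± 0.09 in wild type and -0.36 ± 0.09 in Ser585Gly (adjusted p = 0.0229 and 0.0443). The difference between these responses, -0.79 ± 0.11, was not called (limma, adjusted p = 0.0696). Ddit3 was higher in Ser585Gly than in wild type at 0 h, by 0.67 ± 0.09 (adjusted p = 0.00872; 0.069 without the Cy3 array of that pair), and had -0.12 ± 0.09 at 12 h (adjusted p = 0.668). The Ser585Gly call of Ddit3 was lost without any 1 of 7 arrays (0.0703 to 0.343), all but the Cy5 array of the mutation at 0 h, and the wild-type call without any 1 of 4 (0.0563 to 0.19).

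**Figure D5:**
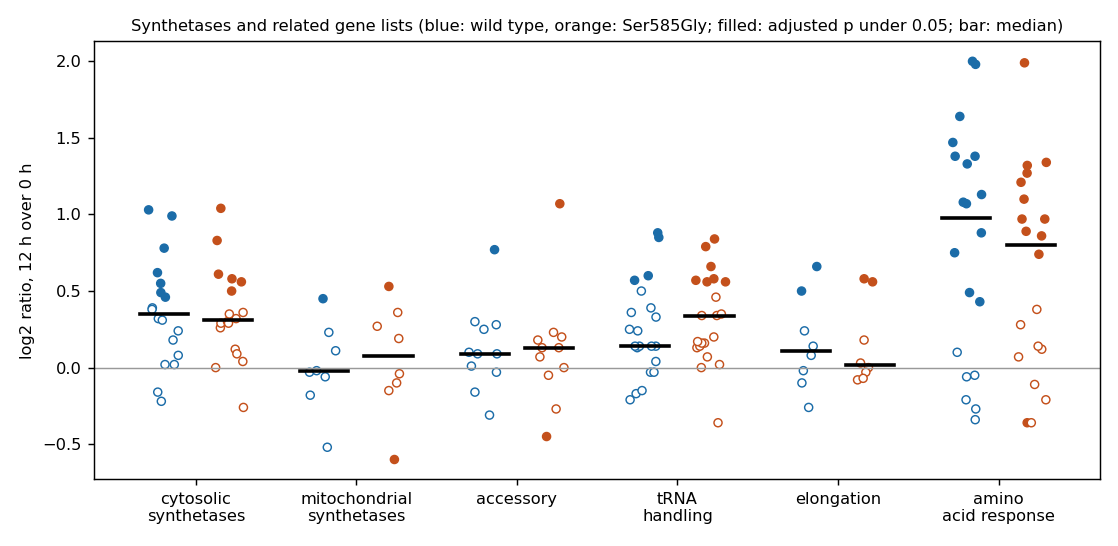
Log2 ratio of 12 h over 0 h for each measured gene of 6 lists in wild type (blue, left) and Ser585Gly (orange, right); filled points had an adjusted p under 0.05, bars are medians, and the sideways position within a list has no meaning. The medians are 0.35 and 0.31 for cytosolic synthetases, -0.03 and 0.07 for mitochondrial ones, and 0.98 and 0.80 for the amino acid response list.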

How the data were processed

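The members and the gene lists were chosen with earlier results of these data known. Per the file headers, the deposited scanner values are intensity, with foreground and local background for Cy5 and Cy3. The deposited table gives log2 ratios of Cy5 over Cy3, and the submitters' processing notes name limma; the sources used here do not give its further steps. Among its 23040 rows, gene probes were placed on scanner spots by their probe number plus an offset. The offset was the commonest in each probe set when rows were matched to spots by their values on 8 arrays. Controls were placed by their coded position, and names were then moved to the recovered 24-pin print order. Of 21797 gene probes, 21776 were placed. Of 1012 controls with a coded position, 94.1% had that spot nearest by values, and of the placed gene probes 90.2% had theirs. In the recovered order 244 empty wells had a median brightness percentile of 1.38, against 46.7 in the deposited order, and the 2 brightest probes of 1050 genes correlated in time in wild type at 0.39 against -0.018, a description across genes. Symbols came from the platform annotation, updated by identifier or accession: 16642 probes had 1 symbol, 137 several and 4997 none.

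Background was corrected by normexp (offset 50), and arrays were normalised by loess (span 0.3). limma 3.58.1 in R 4.3.3 fitted 8 arrays with mutation, time, interaction and dye (residual degrees of freedom 4, prior 4.35), with two-sided tests adjusted by Benjamini-Hochberg over 21776 probes. The fit was tested on simulated data. Groups came from the labels. All called members were named, with each array for the 8 largest time ratios and any mutation call, and up to 6 called genes of each related list. Alternatives were no background correction, print-tip loess, median centring, the deposited ratios, a filter on the dimmest 25% of probes, averaged dye swaps, own arrays only, each array left out, other probe rules and the deposited order of names. The number of arrays limits the precision.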

Additional observations from a re-analysis of the deposited data

How the results depend on the processing

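The deposited log2 ratios and print-tip loess gave more calls, and averaged dye swaps or own arrays gave fewer. Members called for time in wild type (8) numbered 13 with print-tip loess, 13 with the deposited ratios, 4 with averaged pairs, 4 with own arrays only, 4 in the deposited order of names, and 3 to 10 with 1 array left out. For time in Ser585Gly (8) they numbered 16, 15, 5 (averaged), 3 (deposited order) and 2 to 13. For the mutation at 0 h (1) they numbered 2 with print-tip loess, 0 with median centring, 4 with the deposited ratios, 3 without the dimmest 25% of probes, 0 with averaged pairs, own arrays or the deposited order, 2 counting any probe, and 0 to 2 with 1 array left out. For the mutation at 12 h (0) they numbered 1 without background correction, 3, 5, 1 without dim probes, 1 counting any probe, and 0 to 2. No member was called for the interaction under any setting. All genes called, in the order print-tip loess, deposited ratios, averaged pairs, own arrays, 1 array left out, numbered 3038, 3121, 785, 650 and 322 to 2443 for time in wild type (1537); 3262, 3264, 1050, 903 and 230 to 2629 for time in Ser585Gly (1750); 1630, 2015, 219, 181 and 84 to 516 for the mutation at 0 h (714; 442 with median centring); 798, 1736, 122, 128 and 55 to 500 for the mutation at 12 h (296); and 42, 70, 0, 0 and 0 to 3 for the interaction (9; 16 without background correction, 5 with median centring). The cytosolic median for time in Ser585Gly was 0.41 with median centring. Under the deposited order of names, which assigns other spots to these genes, the cytosolic medians were -0.05, 0.09, -0.19, -0.08 and 0.08 (time in wild type and Ser585Gly, mutation at 0 h and 12 h, interaction), and the mitochondrial median for the mutation at 0 h -0.11. In that order the sign turned for Iars (-0.13), Nars (-0.09), Yars (-0.63) and Hars2 (-0.67) in wild type, for Lars (-0.07), Nars (-0.05), Yars (-0.65), Hars2 (-0.56) and Wars2 (0.16) in Ser585Gly, and Nars at 0 h was 0.00. Over 15 other settings, 17 results of single members kept their side of the threshold in 191 cases, lost the call in 64 and reversed in 0. In the labels each array has its own number, and a minus sign marks the opposite dye orientation. Orientation was handled by the direction of each ratio and the dye term of the fit. No paired analysis was possible because the labels name no cultures shared between arrays. The cause of these differences was not tested.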
